A study of Mus musculus with 12 samples.

Results

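The genes described are the 3 TET dioxygenases (Tet1, Tet2 and Tet3) and 3 DNA glycosylases that act with them or on the same bases (Tdg, Smug1 and Mbd4). They were picked by gene symbol, with earlier results of these data known, and are 6 of the 20325 genes in the deposited tables. Ascorbic acid (AA) is a cofactor of the TET enzymes, so the question asked was whether transcripts of the enzymes themselves differed when cells received AA, 2i or both. RNA was sequenced from mouse pre-iPSCs, cells stalled late in reprogramming, after 48 h of treatment. DMSO was the control, AA was given at 50 μg per ml, and 2i was 1 μM of a MEK inhibitor with 3 μM of a GSK inhibitor. In AA+2i both were given together. Each of the 4 conditions had 3 libraries with the letters A, B and C, 12 libraries in all, and the study calls them biological replicates. The labels do not say whether they came from separate cultures, so p-values measure the spread between these samples, which may be technical. By the study's methods, pre-iPSC lines were clones. Some came from Nanog-GFP reporter fibroblasts that received retroviral Oct4, Sox2, c-Myc and Klf4, and others from astrocytes without that reporter. The methods also call the source fibroblasts and astrocytes heterozygous for rtTA, with these factors in a cassette. The study chose this time because Nanog-GFP colonies were still absent, which refers to the reporter, but the labels do not name the line used here. The cells were maintained on irradiated feeders but treated without the feeder layer, in medium shared by all 4 conditions.

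TET enzymes oxidise 5-methylcytosine to 5-hydroxymethylcytosine and further to 5-formylcytosine and 5-carboxylcytosine, in a reaction that needs iron and 2-oxoglutarate and is helped by ascorbate. TDG, a thymine DNA glycosylase, cuts out the last products, and base excision repair fills the gap with an unmodified cytosine. SMUG1 removes uracil and 5-hydroxymethyluracil, and MBD4 removes thymine or uracil opposite guanine at methylated CpG sites. Tet1 and Tet2 are the main TET genes of embryonic stem cells, while Tet3 is best known from the oocyte and the zygote.

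The label of the cells was checked against markers. Cdh1 and Epcam, adhesion genes of epithelial cells, were at 43.2 ± 9.90 and 87.7 ± 18.7 TPM (a level scaled to transcript length and to the library) in DMSO (SD, n = 3). Krt8, Krt18 and Cldn6, also epithelial, were lower, at 14.2 ± 8.27, 0.713 ± 0.749 and 0.05 ± 0.0866 TPM. Esrrb, a gene of full pluripotency, was at 0.23 ± 0.08 TPM, and Nanog at 4.41 ± 2.37 TPM. Of other pluripotency genes, Zfp42, Dppa3 and Utf1 were at 2.37 ± 0.698, 0.173 ± 0.121 and 0.0667 ± 0.1155 TPM, but Tdgf1 was at 122.5 ± 38.3. The summed TPM of 8 fibroblast markers, which feeder cells would carry, was 3.5 to 11.2 in DMSO, 8.0 to 18.9 in AA, 4.2 to 4.7 in 2i and 6.8 to 9.4 in AA+2i, with 1 to 3 of the 8 at 0 in each library. Most of this sum in DMSO and AA was Thy1 (5.13 ± 2.31 and 12.6 ± 5.14 TPM), while Lum was at 0 in all libraries, and Col1a1 was at 0.733 ± 1.07 TPM in DMSO and 0.493 ± 0.319 in AA. The sum of 5 epithelial markers was 102.8 to 169.1 in DMSO, 225.4 to 373.1 in AA, 116.7 to 143.7 in 2i and 318.3 to 334.2 in AA+2i, and 0 or 1 of them was at 0 in each library. The sum of 6 pluripotency markers, most of it the EGF-CFC gene Tdgf1, was 97.4 to 176.3, 323.4 to 437.9, 32.8 to 41.3 and 170.0 to 207.8 in the same order, again with 0 or 1 at 0. These lists moved with the conditions, and their part in the results was not tested. In bulk RNA, fewer cells of a type and less RNA per cell cannot be told apart. Total expected counts ran from 16173322 to 54392719 per library, with a median of 21854761. The libraries differed in the dependence of expression on transcript GC content and length. At the GC content of Tet1 the curves of DMSO A, AA A and AA+2i C were farthest from the mean (0.65, 0.52 and −0.45 on the log2 scale), and at its length those of AA+2i C and DMSO A (−0.64 and 0.50). Values without these libraries and with corrections for either are given where they bear on a gene.

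The promoters of Tet1 and Tet2 are shown because these genes made up most of the TET transcripts and their ratio differed between DMSO, AA and the conditions that held 2i. The sequences are from RefSeq (GRCm38.p6), each 250 bases before to 50 bases after a start of the gene, on its own strand and with CpG sites in capitals. Other starts were not searched. The windows were not compared with the gene spans given below, which are of another build (mm9). The Tet1 window lies at chr10:62887275-62887574 (− strand) and that of Tet2 at chr3:133544341-133544640 (− strand).
Tet1: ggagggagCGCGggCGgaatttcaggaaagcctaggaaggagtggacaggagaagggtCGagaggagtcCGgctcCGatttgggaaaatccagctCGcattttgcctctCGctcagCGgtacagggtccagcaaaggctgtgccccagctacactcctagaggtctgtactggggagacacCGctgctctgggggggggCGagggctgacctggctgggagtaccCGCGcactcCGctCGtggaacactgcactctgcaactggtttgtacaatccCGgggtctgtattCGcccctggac
Tet2: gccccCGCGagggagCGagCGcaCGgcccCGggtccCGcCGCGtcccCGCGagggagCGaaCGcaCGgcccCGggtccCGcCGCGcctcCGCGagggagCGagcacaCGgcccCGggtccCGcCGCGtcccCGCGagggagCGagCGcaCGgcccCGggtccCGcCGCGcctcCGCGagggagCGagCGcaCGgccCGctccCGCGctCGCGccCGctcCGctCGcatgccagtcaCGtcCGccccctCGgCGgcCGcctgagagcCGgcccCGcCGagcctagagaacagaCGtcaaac
The Tet1 window has 17 CpG sites and a GC content of 61.7%, and that of Tet2 has 57 CpG sites and 81.3%. The median over 32851 promoters of this length is 7 CpG sites, so Tet1 exceeds 68.6% and Tet2 99.8% of them. All 6 genes lie above this median, with 22 sites in Tet3, 26 in Tdg, 15 in Smug1 and 25 in Mbd4. Both strands were searched for 3 sets of letters that stand for factors downstream of the 2 kinases. CTTTGA, the core of TCF/LEF sites of Wnt signalling, was in none of the 6 windows and in 16% of all promoters. GCGNGGGCG, the motif of the EGR factors, had 1 match in Tet1 and none in the other 5 (5.55% of all promoters), and CCGGAA, the core of ETS sites, had 2 matches in Smug1 and 1 in Mbd4 (14.9%). A match describes only the letters of the window.

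Transcripts of all 6 genes were found in every library, and all 6 passed the filter on low counts (at least 10 counts in at least 3 libraries). Tet1 (chromosome 10, 62267318 to 62361866, mm9) had 735 to 12584 counts per library, Tet2 (chromosome 3, 133126643 to 133207354) 775 to 7430 and Tet3 (chromosome 6, 83312367 to 83391672) 648 to 4084. Tdg (chromosome 10, 82092573 to 82113544) had 2351 to 8962 counts, Smug1 (chromosome 15, 102983738 to 102988383) 510 to 1818 and Mbd4 (chromosome 6, 115790715 to 115803389) 451 to 2078. These positions are whole gene spans, exons and introns. The end of Tdg overlaps Glt8d2 on the other strand, and since the counting did not use strand, reads of that stretch cannot be assigned to one of them. The spread between replicates was wide for the TET genes. For Tet1 and Tet2 it was 2.12-fold to 3.17-fold from the lowest to the highest library of a condition in TPM, against 1.08-fold to 1.54-fold for Tdg.

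Tet1 was low in both conditions that held 2i. It was at 46.56, 36.03 and 20.64 TPM in DMSO A, B and C and at 65.55, 31.69 and 24.48 in AA. With 2i the levels were 16.81, 10.55 and 5.30 TPM, and in AA+2i they were 17.14, 16.04 and 6.44. All 6 libraries that received 2i lay below all 6 that did not, while DMSO and AA overlapped. The share of all genes with this split was not counted. In log2 CPM (counts scaled to library size), 10.7% of all genes lay wholly below DMSO in 2i and 15.6% in AA+2i. Wholly below AA in AA+2i were 12.4%. Tet1 was lowest in letter C of every condition.

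The fitted values follow the order of these levels. The fit was edgeR's quasi-likelihood test on rounded counts over 13400 genes, with Benjamini-Hochberg adjusted p-values called under 0.05. With 2i, the log2 fold change of Tet1 against DMSO was −1.50 (SE 0.48, 95% interval −2.56 to −0.44), a fitted level 2.83-fold lower, with an unadjusted p of 0.00973 (adjusted p = 0.124, edgeR). With AA+2i it was −1.21 (SE 0.48, −2.27 to −0.16, adjusted p = 0.149, edgeR), and between AA+2i and AA it was −1.46 (SE 0.48, −2.51 to −0.40, adjusted p = 0.119, edgeR). None of the 3 passed. The direction was the same in every setting tried, with a range of −1.90 to −1.15 for 2i against DMSO, −1.45 to −0.74 for AA+2i against DMSO and −1.72 to −0.98 for AA+2i against AA.

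Whether Tet1 passed the threshold in 2i depended on the setting. DESeq2, on the same counts, gave the same log2 fold change of −1.50 with an adjusted p of 0.0337 (8.2% of all genes passed with DESeq2 in this comparison, 4.42% in edgeR's test). At the GC content of the Tet1 transcript, 43.7%, the smooth curve of each library lay on average 0.21 above the mean of all libraries in DMSO and at −0.04 in 2i (log2 scale), and in DMSO A it lay 0.65 above. With these curves taken out, Tet1 was at −1.27 (SE 0.28, adjusted p = 0.0113, edgeR), and 11.9% of all genes passed. A correction for transcript length, which is 13986 bases for Tet1, gave −1.22 (SE 0.27, adjusted p = 0.0245, edgeR) with 5.43% of all genes passing, and was chosen after seeing the data. Without DMSO A the value was −1.15 (adjusted p = 0.330, edgeR). Without letter A, B or C in all conditions it was −1.55, −1.55 and −1.43, and did not pass. A fit with the replicate letter as a block gave −1.54 (adjusted p = 0.000655, edgeR), where 1782 of 13400 genes passed. No label says that the letters pair libraries, and block values of the other comparisons are given in the last section. For AA+2i against DMSO, the GC and length corrections gave −0.81 and −0.74, more than 1.5 times smaller than the value of the reported fit for the latter, with adjusted p-values of 0.058 and 0.12 (edgeR). Leaving out AA+2i C gave −0.92 (adjusted p = 0.460, edgeR) and leaving out DMSO A −0.87 (adjusted p = 0.426, edgeR). Leaving out letter A, B or C in all conditions gave −1.07, −1.39 and −1.16, and Tet1 did not pass. For AA+2i against AA, Tet1 passed with DESeq2 (adjusted p = 0.0371) and with the GC and length corrections (−1.19, adjusted p = 0.0132, and −1.25, adjusted p = 0.0178, edgeR), where 9.77%, 14.9% and 6.99% of all genes passed. Without AA A it was at −0.98 (adjusted p = 0.377, edgeR). Without letter A, B or C in all conditions it was at −1.20, −1.72 and −1.41, and did not pass.

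**Figure D1:**
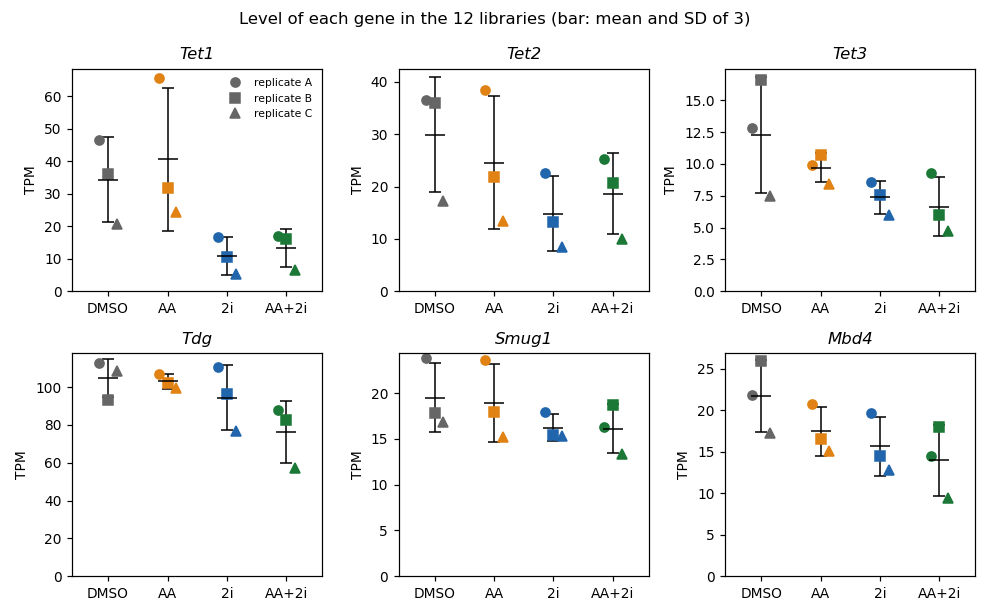
TPM of each gene (y axis, from 0) in the 12 libraries by condition (x axis). Each point is 1 library, with its letter shown by the shape, and the bars are the mean and SD of 3. All 6 Tet1 libraries that received 2i lie at or below 17.14 TPM and the others at or above 20.64, while the conditions of Smug1 and Mbd4 overlap.

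Tet2 varied in the same libraries but with a smaller difference. With DMSO it was at 36.54, 35.89 and 17.21 TPM and in AA at 38.36, 21.75 and 13.50. With 2i it was at 22.63, 13.31 and 8.53 TPM and in AA+2i at 25.31, 20.61 and 10.07. Every condition overlapped every other. The log2 fold change against DMSO was −0.84 in 2i (SE 0.44, −1.80 to 0.12, adjusted p = 0.391, edgeR) and −0.49 in AA+2i (SE 0.43, −1.45 to 0.46, adjusted p = 0.447, edgeR). For AA+2i the GC correction gave −0.19 and the length correction −0.10. Under the replicate block, Tet2 passed in 2i and in AA+2i (−0.86 and −0.49, adjusted p = 0.00323 and 0.0211, edgeR). Of 13400 genes, 1782 and 4229 passed there, and no label says that the letters pair libraries.

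Tet3 was the least abundant TET gene by mean in every condition. It was at 12.81, 16.59 and 7.48 TPM in DMSO, at 9.95, 10.69 and 8.44 in AA, at 8.58, 7.54 and 6.0 in 2i and at 9.27, 5.96 and 4.74 in AA+2i. DMSO C lay below DMSO A and B and within the range of the 2i and AA+2i libraries. The log2 fold change in 2i was −0.53 (SE 0.27, −1.12 to 0.05, adjusted p = 0.364, edgeR), and −0.76 to −0.23 over the other settings. With AA+2i it was −0.67 (SE 0.27, −1.26 to −0.08, unadjusted p = 0.0285, adjusted p = 0.151, edgeR). The corrections moved the AA+2i value of Tet3 in opposite directions, to −0.99 with GC (adjusted p = 0.0494, edgeR) and to −0.21 with length (adjusted p = 0.495, edgeR), where 19.6% and 9.37% of all genes passed. With DESeq2, 14.0% did, and Tet3 was not among them (adjusted p = 0.102). Under the replicate block, Tet3 was at −0.66 in AA+2i (adjusted p = 0.0327, edgeR), where 4229 of 13400 genes passed. There it was at −0.50 in 2i and did not pass (adjusted p = 0.121, edgeR). With block and GC correction together it passed in both. The values were −0.70 in 2i (adjusted p = 0.00427, edgeR) and −0.95 in AA+2i (adjusted p = 0.000458, edgeR), where 3293 and 4831 genes passed. No label says that the letters pair libraries. The Tet3 transcript has a GC content of 53.4% and 10906 bases.

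In AA alone, no TET transcript passed the test. The log2 fold changes against DMSO were 0.24 for Tet1 (SE 0.47, 95% interval −0.79 to 1.28), −0.26 for Tet2 (SE 0.43, −1.22 to 0.69) and −0.29 for Tet3 (SE 0.27, −0.88 to 0.29), with adjusted p-values of 0.956, 0.956 and 0.939 in edgeR's test. The intervals of this fit leave room for a Tet1 level from 0.577 to 2.43 times that of DMSO. A moderate change in either direction could not have been seen with it. With the replicate block, Tet1 was at 0.22 (SE 0.17), Tet2 at −0.31 (SE 0.13) and Tet3 at −0.26 (SE 0.2). With block and GC correction together they were at 0.38 (SE 0.11), −0.20 (SE 0.13) and −0.39 (SE 0.13). None of these passed (lowest adjusted p = 0.0595, edgeR), and no label says that the letters pair libraries. Without AA A (65.55 TPM) the Tet1 value of the reported fit was −0.23, and without DMSO A it was 0.59. Without letter A in all conditions it was 0.13, and the GC correction gave 0.38 (SE 0.27). When AA was added to 2i, Tet1 differed by 0.29 (SE 0.47), Tet2 by 0.34 (SE 0.43) and Tet3 by −0.14 (SE 0.27), and none passed in the reported fit. With block and GC correction together, Tet1 was at 0.47 (SE 0.11) and Tet2 at 0.50 (SE 0.13). Both passed there (adjusted p = 0.0272 and 0.0421, edgeR), as did 1518 genes in all, while Tet3 did not (−0.26, SE 0.13). With the block alone none of the TET genes passed. The interaction, the change in AA+2i less those in AA and in 2i, was 0.04 for Tet1 (SE 0.67), 0.61 for Tet2 (SE 0.61) and 0.15 for Tet3 (SE 0.38).

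Within a library, the makeup of the TET transcripts separated DMSO, AA and the conditions that held 2i. Tet1 was 1.27, 1.00 and 1.2 times Tet2 in DMSO A, B and C, on the TPM scale. It was 1.71, 1.46 and 1.81 times Tet2 in AA. With 2i the ratio was 0.74, 0.79 and 0.62, and in AA+2i it was 0.68, 0.78 and 0.64. The AA libraries lay above all DMSO libraries, and both conditions that held 2i lay below them, while 2i and AA+2i overlapped. This ratio was formed after the values were seen and is given without a test. As a share of the summed TET TPM, Tet1 was 40.7% to 48.5% in DMSO, 49.4% to 57.6% in AA, 26.7% to 35.0% in 2i and 30.3% to 37.6% in AA+2i. The share of Tet2 was 38.0% to 40.5%, 29.1% to 33.9%, 42.4% to 47.1% and 47.4% to 48.9%. That of Tet3 overlapped between all conditions, from 8.7% in AA A to 30.3% in 2i C. The summed TET level was 76.6 ± 27.3 TPM in DMSO, 74.8 ± 35.0 in AA, 33.1 ± 14.2 in 2i and 38.5 ± 15.6 in AA+2i (SD, n = 3).

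**Figure D2:**
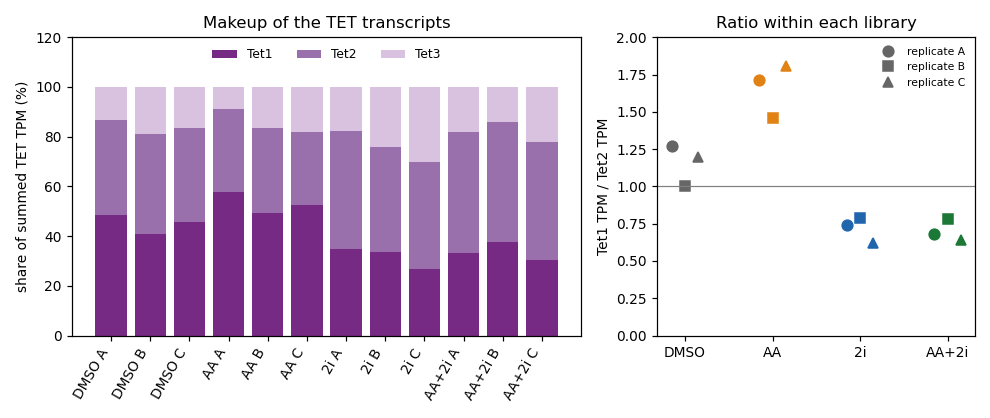
Left, the share of each TET gene in the summed TET TPM (y axis, %) of each library (x axis). Right, the ratio of Tet1 to Tet2 TPM (y axis) by condition, 1 point per library. The AA ratios are 1.46 to 1.81, those of DMSO 1.00 to 1.27, and the 6 that received 2i are at or below 0.79.

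Tdg was the most abundant of the 6 genes by mean TPM in every condition. It was at 112.62, 93.29 and 108.31 TPM in DMSO and at 107.16, 102.34 and 99.49 in AA. With 2i it was at 110.52, 96.16 and 76.59 TPM and in AA+2i at 88.10, 82.81 and 57.35. The AA+2i libraries were all below the AA and DMSO libraries on this scale. On the scale of the test (log2 CPM, counts scaled to library size), they lay below all AA libraries but overlapped those of DMSO. The log2 fold change of Tdg was −0.01 in AA (SE 0.18, 95% interval −0.42 to 0.39), 0.02 in 2i (SE 0.18, −0.39 to 0.42) and −0.28 in AA+2i (SE 0.18, −0.69 to 0.12, adjusted p = 0.328, edgeR). Its fitted level in AA was thus between 0.749 and 1.31 times that in DMSO, the narrowest interval of the 6.

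Smug1 lay close to its DMSO level in each treatment. With DMSO it was at 23.81, 17.84 and 16.89 TPM, in AA at 23.65, 17.92 and 15.21, in 2i at 17.91, 15.41 and 15.28 and in AA+2i at 16.29, 18.71 and 13.34. The 4 conditions overlapped, and the log2 fold changes against DMSO were −0.04, −0.10 and −0.09 (SE 0.22 each). Mbd4 was at 21.78, 25.93 and 17.26 TPM in DMSO, at 20.78, 16.55 and 15.06 in AA, at 19.62, 14.45 and 12.82 in 2i and at 14.50, 17.94 and 9.42 in AA+2i. Again all conditions overlapped. Its log2 fold changes were −0.28 in AA, −0.28 in 2i and −0.44 in AA+2i (SE 0.22 each, the last with a 95% interval of −0.93 to 0.05, adjusted p = 0.236, edgeR). The Mbd4 transcript has a GC content of 43.8%, and the GC correction gave −0.12, −0.07 and −0.09 (SE 0.18 each). The 3 glycosylases together were at 137.06 to 158.21 TPM in DMSO and 80.11 to 119.46 in AA+2i, and Tdg alone was 1.05 to 2.39 times the summed TET level in DMSO, 0.94 to 2.14 in AA, 2.30 to 3.86 in 2i and 1.7 to 2.7 in AA+2i.

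Counted together, 0 of the 6 genes passed in any comparison of the reported edgeR fit, which had no correction or block. Counts under the alternatives are given in the last section. Over all tested genes, 1.34% passed in AA, 4.42% in 2i and 8.34% in AA+2i against DMSO, 0.91% between AA+2i and 2i, 6.1% between AA+2i and AA, and 0.0149% for the interaction. At an unadjusted p under 0.05 there were 0 of 6 in AA (9.43% of all genes), 1 in 2i (Tet1, 16.1%), 2 in AA+2i (Tet1 and Tet3, 24.8%), 0 between AA+2i and 2i (9.53%), 1 between AA+2i and AA (Tet1, 17.0%) and 0 for the interaction (2.31%). In log2 CPM, 0 of the 6 lay wholly below DMSO in AA (4.84% of all genes) or below 2i in AA+2i (8.69%). In 2i, 1 of the 6 (Tet1) did, against 10.7% of all genes, and in AA+2i the same gene, against 15.6%. Between AA+2i and AA this held for 2 of the 6 (Tet1 and Tdg), against 12.4% of all genes. With 6 genes, nothing is read from these counts about the group.

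**Figure D3:**
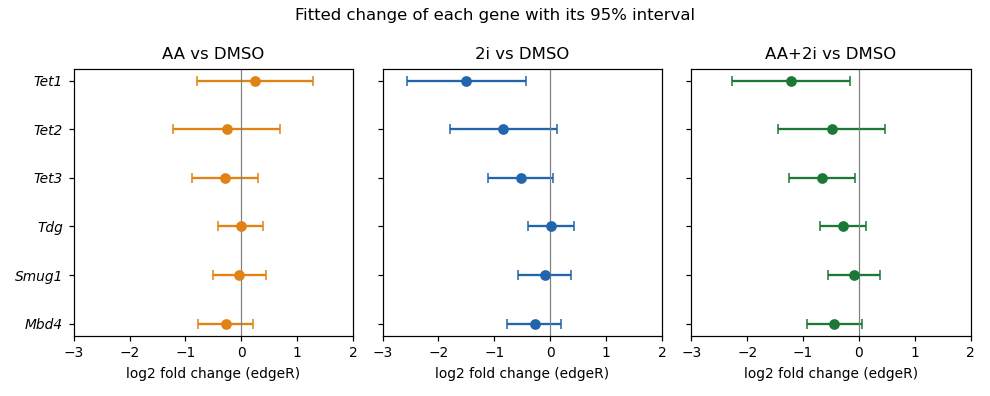
Log2 fold change (x axis, edgeR) of each gene (y axis) in AA, 2i and AA+2i against DMSO, with 95% intervals. All 6 intervals include 0 in AA, only that of Tet1 excludes 0 in 2i, and those of Tet1 and Tet3 do in AA+2i.

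**Figure D4:**
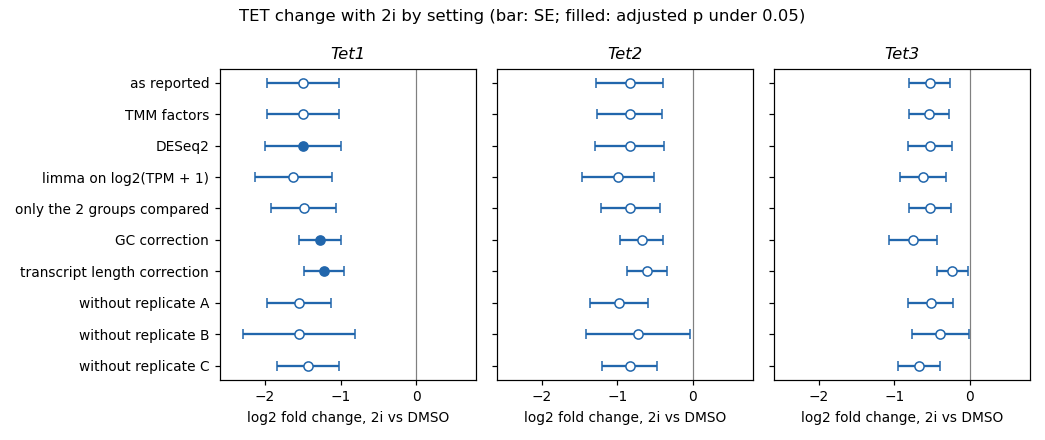
Log2 fold change in 2i against DMSO (x axis) for Tet1, Tet2 and Tet3 under the settings listed on the y axis, which do not include the replicate block, with bars of 1 SE and filled points where the adjusted p was under 0.05. Tet1 is filled with DESeq2 and with the GC and transcript length corrections, and no point of Tet2 or Tet3 is filled.

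The levels were also ordered by condition means. In TPM, Tet1 ran AA, DMSO, AA+2i, 2i from high to low, and of its neighbours in that order DMSO and AA+2i did not overlap. Tet2 ran DMSO, AA, AA+2i, 2i, and the other 4 genes DMSO, AA, 2i, AA+2i, and no neighbours of these 5 genes were free of overlap. In log2 CPM the order of Tdg and Smug1 was different and that of the other 4 genes was the same. Across the 12 libraries Pearson's r of log2 CPM was 0.85 between Tet1 and Tet2, 0.70 between Tet1 and Tet3, 0.71 between Tet2 and Tet3 and 0.77 between Tet2 and Mbd4. These points share conditions, letters and the GC and length dependence of their library, and are given as a description. The 3 tested genes most like each gene by the same measure were Mtm1 (0.989), A930001N09Rik (0.982) and Ptprj (0.981) for Tet1, Mll3 (0.970), Scd1 (0.966) and Nbeal1 (0.963) for Tet2, and Hivep1 (0.927), Inpp4a (0.920) and Sema4d (0.910) for Tet3. For Tdg they were Hsd17b4 (0.920), Nup107 (0.920) and Spats2 (0.915), for Smug1 Atg3 (0.953), Ccdc117 (0.951) and Insig2 (0.946), and for Mbd4 Polq (0.964), Ubn2 (0.952) and Zfp329 (0.950). Mtm1, a lipid phosphatase gene, followed Tet1 most closely, with mean levels of 43.6 TPM in DMSO, 47.6 in AA, 21.1 in 2i and 24.0 in AA+2i.

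The other genes of demethylation and repair were taken from lists by function. Of 8 other DNA glycosylases and of 12 genes that act after the glycosylase in base excision repair, 0 passed in any of the 6 comparisons. Ung, a uracil glycosylase, had log2 fold changes of 0.44, 0.49 and 0.73 in AA, 2i and AA+2i (SE 0.33 each, lowest adjusted p = 0.200, edgeR). Apex1, the endonuclease that cuts at the empty site, was at 0.30, 0.24 and 0.29 (SE 0.19 each) and Polb, the polymerase that fills it, at 0.16, −0.06 and 0.13. The list medians were 0.28, 0.21 and 0.45 for the glycosylases and 0.18, 0.18 and 0.19 for the later steps, against −0.01, −0.02 and −0.02 over all tested genes. The medians were not tested, and some of these genes spread widely within DMSO. Neil1 was at 2.57, 22.67 and 10.74 TPM in DMSO A, B and C (SE 0.69) and Xrcc1 at 8.67, 66.52 and 44.78 (SE 0.66). Polb and Pcna instead had their highest DMSO level in DMSO A (41.53 and 1029.73 TPM). Of 6 tested deaminases and Gadd45 factors, 0 passed, with medians of 0.45, 0.29 and 0.88. Gadd45a, which has been tied to repair at methylated DNA, was at −0.32, 0.53 and 0.54 (SE 0.35 each).

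**Figure D5:**
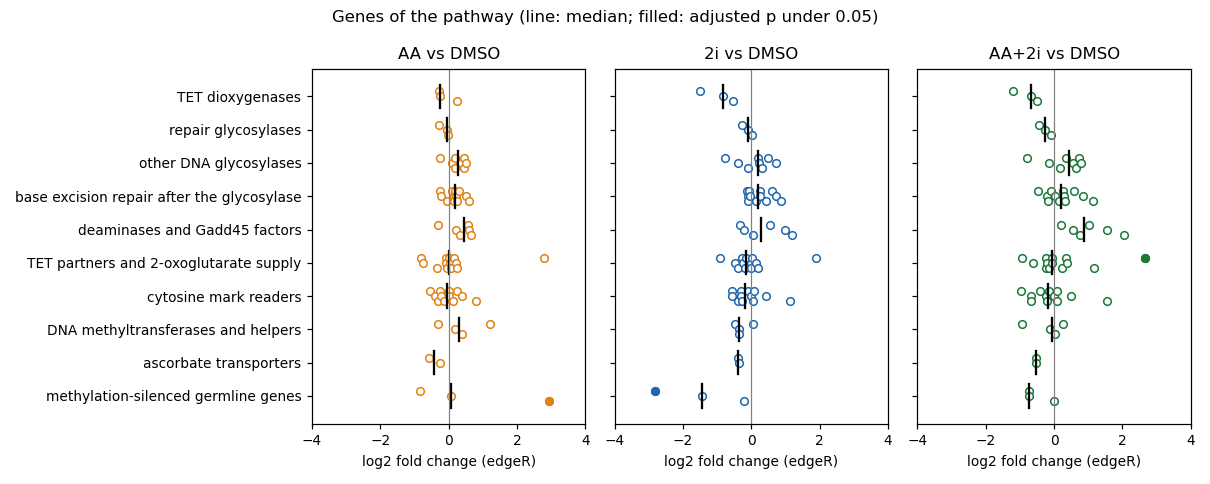
Log2 fold change (x axis, edgeR) of every tested gene in each list (y axis) in AA, 2i and AA+2i against DMSO. Lines are list medians and filled points passed the adjusted threshold, which are Piwil2 in AA and in 2i and Prdm14 in AA+2i.

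Of 13 genes for TET partners and the supply of 2-oxoglutarate, 1 passed in AA+2i, upward, and 0 in AA or 2i against DMSO, beside the 8.34%, 1.34% and 4.42% of all genes that passed there. Prdm14, a pluripotency gene whose protein recruits TET enzymes, was at 0.19, 0.03 and 0.05 TPM in DMSO, 0.44, 0.41 and 0.78 in AA, 0.07, 0.06 and 0 in 2i and 0.27, 0.55 and 0.46 in AA+2i. It rose by 2.65 in AA+2i on the log2 scale (SE 0.72, adjusted p = 0.0466, edgeR) and was at 2.80 in AA (SE 0.71, adjusted p = 0.105, edgeR). The AA+2i and AA libraries lay above all DMSO libraries. It had at most 30 counts in a library, and its AA+2i call held in 3 of 12 fits that left out 1 library and was lost in the 9 without DMSO B or C, AA B or C, 2i A or B, or any AA+2i library (adjusted p up to 0.342 over all alternatives). Ogt, an O-GlcNAc transferase that binds TET proteins, had log2 fold changes of −0.75, −0.93 and −0.94 (SE 0.29 each, adjusted p = 0.376, 0.113 and 0.0724, edgeR). Its level was 269 ± 103 TPM in DMSO, 155 ± 52.3 in AA, 123 ± 25.3 in 2i and 121 ± 40.9 in AA+2i. Idh1 and Idh2, which make 2-oxoglutarate, lay between −0.24 and 0.22 (SE 0.40 and 0.38).

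Of 12 readers of methylated or hydroxymethylated cytosine, 0 passed against DMSO and 1 was higher in AA+2i than in AA, where 6.1% of all genes passed. Uhrf2, which binds 5-hydroxymethylcytosine, was at 36.95, 24.59 and 17.94 TPM in AA and at 45.19, 61.65 and 38.16 in AA+2i, without overlap. It was 1.05 higher in AA+2i than in AA on the log2 scale (SE 0.27, adjusted p = 0.0445, edgeR), and against DMSO it was at −0.55 in AA (SE 0.27) and 0.50 in AA+2i (SE 0.27), neither of which passed. This call held in 3 of 12 fits that left out 1 library (those without DMSO A, DMSO C or AA A) and was lost in the other 9, with adjusted p-values up to 0.591 over all alternatives. Uhrf1, which brings Dnmt1 to replicated DNA, was at 0.23, −0.02 and 0.07 in AA, 2i and AA+2i (SE 0.23 each).

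Of 5 DNA methyltransferases and helpers, 4 were tested (Dnmt1, Dnmt3a, Dnmt3b and the helicase gene Hells) and 0 passed. Dnmt1, the maintenance enzyme, was at 0.18, 0.04 and 0.02 against DMSO (SE 0.19 each). Dnmt3b, a de novo enzyme, was at 1.2 in AA (SE 0.44, adjusted p = 0.340, edgeR), −0.37 in 2i and 0.25 in AA+2i, and Dnmt3a, the other one, at 0.40 (SE 0.17, adjusted p = 0.482, edgeR), −0.37 and −0.13. Dnmt3l, their cofactor, had too few counts to be tested, with 0 to 1 in DMSO, 6 to 30 in AA, 0 in 2i and 2 to 8 in AA+2i. Both ascorbate transporters were tested and neither passed. Slc23a2, which carries ascorbate into most cells, was at −0.26 in AA, −0.37 in 2i and −0.52 in AA+2i (SE 0.17 each, lowest adjusted p = 0.0876, edgeR).

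As genes that DNA methylation is known to keep silent, 12 germline genes were also listed, of which 3 had enough counts to be tested. Piwil2, a piRNA factor, rose in AA, by 2.95 on the log2 scale, and fell by 2.83 in 2i (both called in edgeR's test). It was also higher in AA+2i than in 2i and lower than in AA. Of all genes, 1.34% passed in AA, 4.42% in 2i, 0.91% between AA+2i and 2i and 6.1% between AA+2i and AA. Over 24 alternative fits, the Piwil2 call held in 21 for AA and in 23 for 2i. It held in 19 between AA+2i and 2i and in 23 between AA+2i and AA. Among the 12 fits that left out 1 library, only the call between AA+2i and 2i was lost, in that without 2i B. Sycp3 and Brdt did not pass in any comparison.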

How the data were processed

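RNA of 12 libraries (4 conditions, 3 replicates each) was sequenced from libraries made with a TruSeq kit. Reads were cleaned by the authors, mapped by Bowtie to RefSeq genes of mm9 and quantified by RSEM 1.2.4, without strand (tools and build also per the submitters' processing notes). The authors deposited expected counts, which are not normalized, and TPM, scaled within each library. One malformed TPM cell, of a gene not described here, was recomputed. RSEM divides reads shared by several genes, which sets fractional counts.

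After rounding, the counts entered edgeR 4.0.16 (R 4.3.3) with RLE factors and 1 model of 4 conditions (8 residual degrees of freedom). The filter (10 counts or more in 3 or more libraries) kept 13400 of 20325 genes, and Benjamini-Hochberg adjustment ran over all 13400 with a threshold of 0.05. The study used EB-seq, which was not run here. Each SE is the absolute log2 fold change divided by the root of the F statistic, and intervals are 95%. Smooth curves of log2 CPM (prior count 2) on GC content (known for 13303 tested genes) or transcript length (loess, span 0.4) gave the corrections. Total expected counts were 16173322 to 54392719, and any pair of libraries differed in at least 14945 genes, so none is a copy. Alternatives were TMM, DESeq2 1.42.0, limma 3.58.1 on log2(TPM + 1), no filter, only the groups compared, both corrections, a replicate block and left-out libraries. Scripts were tested on simulated data. Named genes are the 6 genes, any list gene that passed, 14 fixed pathway genes and the 3 most alike per gene. The genes and lists were chosen with earlier results of these data known. No protein sequences were used here.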

Additional observations from a re-analysis of the deposited data

How the results depend on the processing

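The counts of the 6 genes that passed were 0 in every comparison of the reported edgeR fit (counts over 13400 genes follow below). For 2i against DMSO they were 1 with DESeq2, 1 with the GC correction, 1 with the transcript length correction (chosen after seeing the data), 2 with the replicate block and 3 with block and GC correction together. For AA+2i against DMSO they were 1 with GC, 3 with the block and 2 with both. For AA+2i against AA they were 1 with DESeq2, 1 with GC, 1 with length, 1 with the block and 2 with both, and for AA+2i against 2i 2 with both. AA against DMSO and the interaction had 0 under every alternative. With the block, Tet1 was at −1.54 and Tet2 at −0.86 in 2i (adjusted p = 0.000655 and 0.00323, edgeR), Tet1 at −1.21, Tet2 at −0.49 and Tet3 at −0.66 in AA+2i (0.00123, 0.0211 and 0.0327), and Tet1 at −1.43 between AA+2i and AA (0.000692). With both, Tet1, Tet2 and Tet3 passed in 2i, Tet1 and Tet3 in AA+2i and between AA+2i and AA, and Tet1 and Tet2 between AA+2i and 2i. The block is the replicate letter, and nothing in the labels says that it pairs libraries. Deviations from condition means correlated above 0.1 in 15 of 18 pairs with the same letter (mean r 0.401, −0.588 to 0.894) and had a mean of −0.196 over 36 pairs with different letters. Since condition means were taken out, the negative mean is tied to the positive one and is not a second observation. Of 12 libraries, 9 were closest to their own letter, a hint from the data and not from the design. Over all genes, calls with 2i were 592, and 1 without replicate B, 52 without C, 272 without A, 1099 with DESeq2, 1601 with GC, 1782 with the block and 3293 with both. With AA they were 179, and 0 to 119 in fits without a letter or a library whose loss moved the count by over 1.5 times, 0 with only the 2 groups compared, 454 with DESeq2, 546 with GC, 594 with the block and 1444 with both. With AA+2i they were 1117, and 18 without replicate B, 296 without C, 667 without A, 1879 with DESeq2, 2620 with GC, 4229 with the block and 4831 with both. Between AA+2i and AA they were 817, and 1309 with DESeq2, 1992 with GC, 1992 with the block and 3676 with both. Without replicate B these calls were 7, without C 159 and without A 528. Between AA+2i and 2i they were 122, and 468 with DESeq2, 618 with GC, 606 with the block and 1518 with both. Without replicate B or C the calls between AA+2i and 2i were 0, and without A 12.

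Of 858 alternatives of 36 log2 fold changes, 780 kept their direction and their side of the threshold, 22 passed where the reported fit did not, and 56 turned the sign, over 18 fold changes no larger than 0.29. None of the turned values passed. For AA against DMSO, Tdg turned to 0.0097 with TMM, 0.064 with GC and 0.066 with GC and the block, and Tet3 to 0.026 with length. With 2i, Tdg turned to −0.16 with limma. Between AA+2i and 2i, Smug1 turned to −0.016 with limma and −0.004 with only the groups compared, and Tet3 to 0.019 with length. Between AA+2i and AA, Tet2 turned to 0.0054 with GC and 0.0035 with GC and the block, Mbd4 to 0.032 and 0.042, and Smug1 to 0.0097 with both. For the interaction, length gave −0.027 for Tet1 and −0.0066 for Tet3. The cause was not tested. Leaving out a letter or 1 library gave, for AA against DMSO, −0.23 to 0.59 for Tet1, −0.69 to 0.014 for Tet2, −0.17 to 0.10 for Tdg and −0.18 to 0.18 for Smug1. With 2i it gave −0.15 to 0.18 for Tdg and −0.23 to 0.12 for Smug1, and with AA+2i −0.29 to 0.15 for Smug1. Between AA+2i and 2i it gave −0.015 to 0.69 for Tet1 and −0.095 to 0.061 for Smug1, and between AA+2i and AA −0.50 to 0.19 for Tet2 and −0.16 to 0.11 for Smug1. For the interaction it gave −0.31 to 0.52 for Tet1, −0.15 to 0.38 for Tet3, −0.18 to 0.19 for Smug1 and −0.17 to 0.30 for Mbd4. Where a condition was left with fewer libraries, the spread of the others was assumed for it. Each of the 6 genes had at least 451 counts in every library.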
